A study of Mus musculus with 4 samples.

Results

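This account covers 10 genes whose products mark an acute phase reaction or damage to kidney tubules: Saa3, Lcn2, Havcr1, Spp1, Fga, Fgb, Fgg, Serpina3n, Lbp and Cdkn1a. They were given as a list of names, and every probe set that the platform annotation assigns to one of them, and to no other gene, was taken on all 4 arrays. That gave 10 probe sets for 9 of the 10 genes, out of 22690 probe sets and 12394 named genes in all. Cdkn1a had 2 probe sets, 8 genes had 1 each, and Spp1 was not analysed here. The mice were C57BL/6, with the sex given as male and the age as 17 weeks. In the glomerulonephritis (GN) groups, 10 mg of horse spleen apoferritin was injected intraperitoneally 5 days a week and 100 µg of lipopolysaccharide, as adjuvant, 3 times a week, for 6 weeks from about 8 weeks of age. The saline groups received 0.15 M NaCl in the same volumes. Mice of the water groups drank water, and those of the captopril groups took captopril in it, at 100 mg/kg/day, a drug that blocks angiotensin converting enzyme. Kidneys were removed after 9 weeks. The 4 groups of 6 mice were thus GN+Water, GN+Captopril and their controls, Saline+Water and Saline+Captopril, each represented by 1 array of whole-kidney RNA, and how many mice gave that RNA is not stated. The study's title puts the question as whether inhibiting this enzyme lessens interstitial injury.

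The acute phase reaction is the systemic answer to infection and injury, in which cytokines such as interleukin-6 and interleukin-1 act through the transcription factors STAT3, NF-kB and C/EBP to raise a set of secreted proteins. The liver is the main source, but injured tubules make several of them, and Lcn2 and Havcr1 proteins are measured in urine as markers of tubular damage. In whole-kidney RNA, fewer cells of a type and less RNA per cell cannot be told apart.

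Levels below are log2 probe set values, so a difference of 1 is a 2-fold difference, and levels of different genes are not compared with each other. With 1 array per group no difference has a replicate, an error or a test, and none can be set against the spread between animals. As a yardstick, each count of members past 2-fold is given beside the share of all 12394 genes past the same threshold. Many single differences are given beside the range that holds the central 95% of all genes in the same pair of arrays. The members were chosen with earlier results of these data known, so a count above that share is not independent support.

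Both arrays of the water-drinking mice stood apart. The GN+Water-labelled array went against its male label, with Xist, transcribed from the inactive X, at 8.97 against 5.02 to 5.21 on the other 3, and the Y-linked Eif2s3y at 3.43 against 8.02 to 8.29. It is called the GN+Water-labelled array throughout. On Saline+Water the 18 spike-in probe sets had a median of 10.8, against 7.46 to 7.89 on the others, and its correlation with the other arrays over all probe sets was 0.945 to 0.966, against 0.982 to 0.994 among those 3. The comparison of GN+Captopril with Saline+Captopril uses neither array. The members' values and counts against Saline+Water are also given with Saline+Captopril as the baseline. That second pair differs in captopril as well as in GN, so its values are not a GN difference alone. Of the kidney markers, 7 proximal tubule, 5 loop and distal tubule, 4 collecting duct and 4 podocyte genes were measured. None was near background on any array, meaning at a level no higher than the 90th percentile of that array's 27 negative controls.

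Upstream sequences are shown for the pair of genes with the widest range over the arrays, Saa3 and Lcn2, and for the 3 fibrinogen genes, which lie next to each other on chromosome 3 and whose levels did not follow one pattern. Each is the 250 bases before a RefSeq transcript start (GRCm38.p6), 5′ to 3′ on the gene's strand. Capitals mark matches on either strand to the motifs named in the next paragraph.
Saa3, chr7:46715677-46715926, - strand: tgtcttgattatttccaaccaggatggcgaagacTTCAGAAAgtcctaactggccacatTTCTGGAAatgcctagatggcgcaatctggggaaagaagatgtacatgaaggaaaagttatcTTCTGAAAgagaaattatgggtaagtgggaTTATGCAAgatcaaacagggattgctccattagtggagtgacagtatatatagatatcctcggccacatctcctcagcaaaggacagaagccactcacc
Lcn2, chr2:32387740-32387989, - strand: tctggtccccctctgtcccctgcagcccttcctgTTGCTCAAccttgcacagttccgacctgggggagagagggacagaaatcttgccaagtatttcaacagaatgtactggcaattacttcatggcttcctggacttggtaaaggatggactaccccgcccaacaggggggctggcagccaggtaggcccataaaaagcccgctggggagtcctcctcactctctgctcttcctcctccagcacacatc
Fga, chr3:83025903-83026152, + strand: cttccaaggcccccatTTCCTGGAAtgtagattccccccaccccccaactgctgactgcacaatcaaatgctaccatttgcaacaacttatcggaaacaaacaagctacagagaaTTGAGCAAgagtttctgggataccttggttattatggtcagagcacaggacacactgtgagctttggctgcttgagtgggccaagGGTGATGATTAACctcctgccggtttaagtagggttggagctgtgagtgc
Fgb, chr3:83049864-83050113, - strand: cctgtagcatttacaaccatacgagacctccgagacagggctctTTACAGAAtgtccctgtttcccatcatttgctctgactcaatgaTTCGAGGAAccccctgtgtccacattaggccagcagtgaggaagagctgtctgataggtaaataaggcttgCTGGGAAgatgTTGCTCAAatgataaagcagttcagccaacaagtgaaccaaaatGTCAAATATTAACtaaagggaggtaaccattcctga
Fgg, chr3:83007474-83007723, + strand: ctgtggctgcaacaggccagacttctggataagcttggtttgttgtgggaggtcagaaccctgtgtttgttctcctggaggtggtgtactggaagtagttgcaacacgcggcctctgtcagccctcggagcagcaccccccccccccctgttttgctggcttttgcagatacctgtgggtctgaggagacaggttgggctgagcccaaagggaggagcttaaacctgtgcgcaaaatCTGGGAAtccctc

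The motifs searched were TTCNNNGAA for STAT factors, TTNNGNAA for C/EBP factors, CTGGGAA as an interleukin-6 response element, a degenerate NF-kB consensus of 10 letters, and, with up to 2 mismatches, a 13-letter consensus of HNF1, the liver and kidney tubule factor. The STAT and C/EBP letters can overlap. Among 32851 upstream windows of the same length, 7.02% held the STAT letters, 36.8% the C/EBP letters, 9.10% CTGGGAA, 5.001% the NF-kB motif and 1.24% the HNF1 motif. The windows of Fga and Fgb each held a STAT and an HNF1 match, and that of Fgg held neither; CTGGGAA was in the windows of Fgb and Fgg. The Saa3 window held 4 C/EBP matches, the Fgb window 2, the Lcn2 and Fga windows 1 each and the Fgg window 0. The motif is so short that a large share of all windows carry it. Over the members it was in 8 of 13 windows, against 36.8% of all windows. The C/EBP letters were first searched with a final T, which 10.2% of windows and none of these 5 held, and the shorter form was chosen after that. The NF-kB motif was in none of the 13 windows, which cover 9 of the 10 genes. Lbp had no entry in the table. A match is a description of letters and does not show that a factor binds there.

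Saa3, a serum amyloid A protein made by many tissues and by macrophages during inflammation, had the widest range of the members. Its level was 6.09 on Saline+Water, 6.18 on Saline+Captopril, 10.8 on the GN+Water-labelled array and 8.95 on GN+Captopril. Both GN arrays were thus above both saline arrays, and the saline arrays differed by 0.10. On captopril the GN array was 6.81-fold higher than the saline array, a log2 difference of 2.77, where the central 95% of genes lay between −0.37 and 0.45. Among the 12394 genes it ranked 11 in that direction. The GN+Water-labelled array was 26.3-fold above Saline+Water and 24.6-fold above Saline+Captopril. The value was thus nearly as large without the saline array with discordant spike-ins. Saa3 was 3.61-fold lower on GN+Captopril than on the GN+Water-labelled array, rank 29 among the genes that were lower. Its single probe set, like those of Lcn2 and Havcr1, is of a kind that can match several transcripts of a gene. Of the liver serum amyloid genes, Saa1 was at 4.93 to 5.37 on the 4 arrays. Saa2 was at 4.26 to 5.47, with its highest value on Saline+Water, and was near background on both captopril arrays.

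Lcn2 encodes lipocalin-2, also called NGAL, which binds bacterial iron carriers and is released by injured distal tubules and by neutrophils. Its level was 5.74 on Saline+Water, 6.43 on Saline+Captopril, 8.61 on the GN+Water-labelled array and 6.83 on GN+Captopril. The GN+Water-labelled array stood alone, and GN+Captopril lay nearer to both saline arrays than to it. The difference from Saline+Water was 7.30-fold, and from Saline+Captopril 4.54-fold. On captopril the GN difference was 1.33-fold, or 0.41 on the log2 scale, within the central 95% of genes in that pair. Lcn2 was 3.42-fold lower on GN+Captopril than on the GN+Water-labelled array, rank 34 among the genes that were lower. The saline arrays themselves differed, with Saline+Captopril 1.61-fold higher.

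Havcr1 encodes kidney injury molecule-1, a receptor for phosphatidylserine on dying cells that injured proximal tubule cells display. Its level was 6.07 on Saline+Water, 6.14 on Saline+Captopril, 7.08 on the GN+Water-labelled array and 6.30 on GN+Captopril. The other 3 values lay within 0.23 of each other and the GN+Water-labelled array was the high one. It was 2.02-fold above Saline+Water and 1.92-fold above Saline+Captopril, and the first value was within the central 95% of genes, from −1.21 to 1.70. On captopril the GN difference was 1.11-fold. Havcr1 was 1.72-fold lower on GN+Captopril than on the GN+Water-labelled array, a log2 difference of −0.78 that lay outside the central 95% of that pair, from −0.68 to 0.61.

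**Figure D1:**
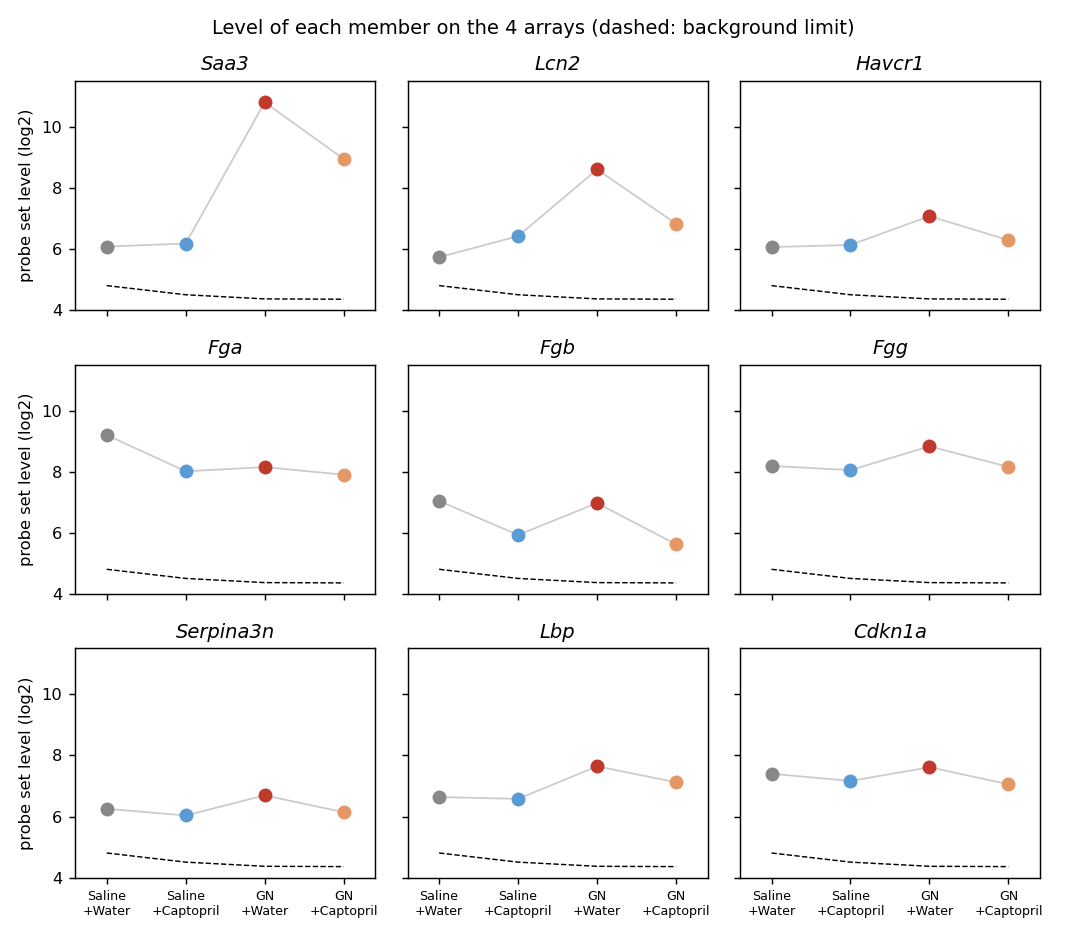
Level of each of the 9 measured members (log2 probe set value, vertical axis) on the 4 arrays, 1 point per array; grey lines only join the points, and the dashed line is the background limit of each array, between 4.36 and 4.81. Saa3 reaches 10.8 and 8.95 on the GN arrays, while Fga is highest on Saline+Water at 9.20.

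The fibrinogen genes encode the α (Fga), β (Fgb) and γ (Fgg) chains that assemble in equal numbers into the clotting protein. They did not move as a unit on these arrays. Fga was at 9.20 on Saline+Water, 8.01 on Saline+Captopril, 8.15 on the GN+Water-labelled array and 7.90 on GN+Captopril. Saline+Water was the high array for it, and the other 3 lay within 0.25 of each other. Set against Saline+Water it was 2.07-fold lower on the GN+Water-labelled array, but relative to Saline+Captopril it was 1.10-fold higher, so its direction turned with the choice of saline array.

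Fgb was at 7.05 on Saline+Water, 5.93 on Saline+Captopril, 6.98 on the GN+Water-labelled array and 5.62 on GN+Captopril. Both water arrays were above both captopril arrays, and each GN array was a little below the saline array of the same drink. Between the saline arrays it was 2.16-fold lower on captopril, and between the GN arrays 2.55-fold lower on GN+Captopril than on the GN+Water-labelled array, and these pairs share no array. They include, however, the array with discordant spike-ins in one case and the array with discordant sex-linked transcripts in the other, and the part of these in the result was not tested. With Saline+Captopril as baseline, which differs in captopril too, Fgb was 2.06-fold higher on the GN+Water-labelled array. Against Saline+Water it was 1.05-fold lower, and that small difference changed sign under cyclic loess normalisation.

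Fgg was at 8.19 on Saline+Water, 8.05 on Saline+Captopril, 8.83 on the GN+Water-labelled array and 8.16 on GN+Captopril. Only the GN+Water-labelled array stood out, 1.56-fold above Saline+Water and 1.72-fold above Saline+Captopril, and the other 3 lay within 0.14. On captopril none of the chains reached 1.5-fold between GN and saline: Fga was 1.08-fold lower, Fgb 1.24-fold lower and Fgg 1.08-fold higher. In the upstream sequences above, the STAT and HNF1 matches were in the windows of Fga and Fgb and not in that of Fgg, and nothing is drawn from this about the factors.

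Lbp encodes the serum protein that hands lipopolysaccharide, the adjuvant given to these mice, to its receptor complex. Its level was 6.64 on Saline+Water, 6.58 on Saline+Captopril, 7.64 on the GN+Water-labelled array and 7.12 on GN+Captopril. As with Saa3, both GN arrays were above both saline arrays. The GN+Water-labelled array was 2.003-fold above Saline+Water and 2.09-fold above Saline+Captopril, and the GN difference on captopril was 1.46-fold. The last is a log2 difference of 0.55, above the central 95% of genes, and ranked 232 among 12394. Among the 500 genes nearest to Lbp in mean level, 8 had a larger one. Against Saline+Water the difference of the GN+Water-labelled array was inside the central 95% of genes, from −1.21 to 1.70. It ranked 967, and 68 of the 500 nearest genes had a larger one. Between the GN arrays, the difference of −0.52 was also inside the central 95%, from −0.68 to 0.61.

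Serpina3n encodes a serine protease inhibitor of the α1-antichymotrypsin family that is secreted in inflammation. Its levels were 6.26, 6.04, 6.69 and 6.14 on Saline+Water, Saline+Captopril, the GN+Water-labelled array and GN+Captopril. The differences were small: the GN+Water-labelled array was 1.36-fold above Saline+Water and 1.58-fold above Saline+Captopril, and on captopril GN was 1.08-fold above saline. Cdkn1a encodes p21, an inhibitor of cyclin dependent kinases that p53 induces and that halts the cell cycle after injury. Its more abundant probe set read 7.40, 7.16, 7.61 and 7.06 in the same order, and its other probe set 6.39, 6.19, 6.52 and 6.19. Both probe sets had their highest value on the GN+Water-labelled array. The GN+Water-labelled array was 1.16-fold above Saline+Water and 1.37-fold above Saline+Captopril, and on captopril GN was 1.08-fold below saline. The values of the water pair and the captopril pair were inside the central 95% of genes.

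Between GN and saline on water, of the 9 members, 4 (Saa3, Lcn2, Havcr1 and Lbp) were at least 2-fold higher on the GN+Water-labelled array than on Saline+Water, where 7.81% of all genes were, and 1 (Fga) was at least 2-fold lower, as were 5.06% of all genes. Havcr1 and Lbp lay just past the threshold, and the count was 2 when each array was centred on its median. At 3-fold it was also 2, Saa3 and Lcn2, against 3.01% of genes. The members' median log2 difference was 0.64, against −0.09 over all genes. With Saline+Captopril in its place, 4 members were again at least 2-fold higher (Saa3, Lcn2, Fgb and Lbp), against 2.1% of genes, and 0 were at least 2-fold lower, against 0.831%. The median was 0.94. All 9 measured members were then above 0, as were 41.8% of genes. This pair differs in captopril as well as in GN. For Fgb the GN differences within the same drink were −0.07 and −0.31. With GN+Captopril set against Saline+Water, 2 were at least 2-fold higher (Saa3 and Lcn2), against 5.68% of genes, and 2 lower (Fga and Fgb), against 3.69%.

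On captopril, 1 of 9 members, Saa3, was at least 2-fold higher on the GN array, against 0.613% of genes, and 0 were at least 2-fold lower, against 0.0242%. The other 8 were under 1.5-fold in either direction, where 1.65% of genes reached 1.5-fold upward and 0.274% downward. The members' median was 0.11 and that of all genes −0.0031. This pair uses neither discordant array.

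**Figure D2:**
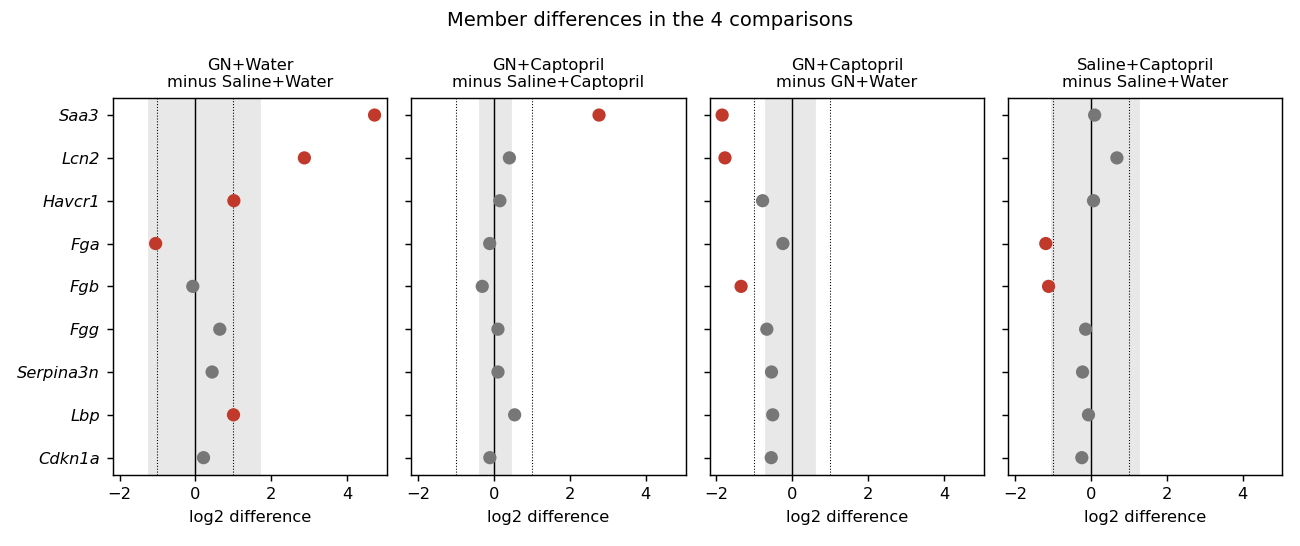
Log2 difference of each of the 9 measured members (horizontal axis) in 4 comparisons, 1 panel each; red points are at least 2-fold apart, dotted lines mark 2-fold, and the grey band holds the central 95% of all 12394 genes. In the captopril pair only Saa3, at 2.77, is past 2-fold.

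Between the GN arrays, every measured member was lower on GN+Captopril than on the GN+Water-labelled array, 9 of 9, where 50.4% of all genes were lower. Saa3, Lcn2 and Fgb were at least 2-fold lower, 3 of 9, against 0.96% of genes, and 0 were at least 2-fold higher, also against 0.96%. At 1.5-fold the count was 5, with Havcr1 and Fgg added, against 3.7% of genes. The members' median was −0.67 and that of all genes −0.0030. This comparison and that of GN with saline on water share the GN+Water-labelled array, so a value peculiar to that array enters both with opposite signs. It cannot be made without that array, and the part of its sex-linked transcripts in the members' values was not tested.

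The difference between the GN differences uses each array once. GN minus saline was smaller on captopril than on water by 1.95 (log2) for Saa3, 2.46 for Lcn2 and 0.85 for Havcr1. For Fgg it was smaller by 0.54 and for Lbp by 0.46, and for Fga it was larger by 0.94. Taken as captopril minus water, the value was −0.33 for Serpina3n, −0.32 for Cdkn1a and −0.24 for Fgb. These are values from 4 single arrays, 2 of them discordant, and the difference was not tested. The central range of all genes was wider on water, from −1.21 to 1.70, than on captopril, from −0.37 to 0.45. No such range is given for the difference between the pairs, so how unusual the members' values are among all genes is not shown.

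Between the saline arrays, 2 of 9 members, Fga and Fgb, were at least 2-fold lower on Saline+Captopril, against 2.86% of genes, and 0 were at least 2-fold higher, against 4.64%. The central 95% of genes ran from −1.03 to 1.28 in this pair, wider than in the captopril pair, and Fga at −1.19 and Fgb at −1.11 lay just below it. Fga read 9.20 on Saline+Water, the array with discordant spike-ins, 8.01 on Saline+Captopril, 8.15 on the GN+Water-labelled array and 7.90 on GN+Captopril. The part of captopril or of the discordant array in these values was not tested.

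**Figure D3:**
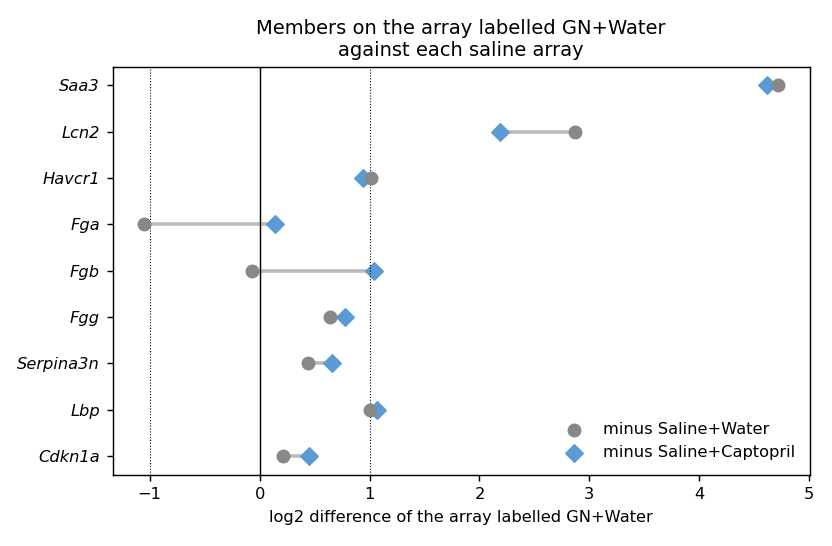
Log2 difference of the GN+Water-labelled array from each saline array (horizontal axis) for the 9 measured members; grey circles use Saline+Water and blue diamonds Saline+Captopril, and dotted lines mark 2-fold. Saa3 moves from 4.72 to 4.62, while Fga moves from −1.05 to 0.14.

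Genes with the most similar pattern were sought among the 8207 genes with a mean level at or above the 40th percentile of probe sets, by the root mean square distance between the 4 values of each gene after subtraction of its mean. All 9 measured members passed that level. For Saa3 the nearest were the antibody light chain segment Igkv15-103, at 0.09 but at the background limit on Saline+Water, so that its distance is uncertain, the macrophage lysozyme gene Lyz2, at 0.42, and another antibody light chain segment, at 0.44. For Lcn2 they were Cebpd, a C/EBP transcription factor gene, at 0.11, Cxcl13, which attracts B cells, at 0.16, and Cp, the copper-carrying ferroxidase, at 0.19. Cebpd read 6.03, 6.50, 8.97 and 7.17 on Saline+Water, Saline+Captopril, the GN+Water-labelled array and GN+Captopril. A second, dimmer Cebpd probe set stayed between 4.82 and 5.10. The nearest genes of Havcr1 were Mxra8, Klf2 and Chst15, each within 0.05, and those of Lbp were Cd93, C1ra and Tmsb4x, within 0.08. For Fga they were Prom2, Vegfb and Nde1, within 0.05, and for Fgb Loxl4, Calb1 and Cyp2d26, within 0.19. Other probe sets of some of these genes gave other values. From Saline+Water to the GN+Water-labelled array a second Cd93 probe set differed by −0.71, against 1.11 for the one used. For Calb1 these values were 0.67 and −0.33, and for Cxcl13 5.27 and 2.64. Other probe sets of the second antibody segment gave −0.44 and 1.95, against 5.48. With 4 arrays many genes share any one pattern, and the distances are a description.

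**Figure D4:**
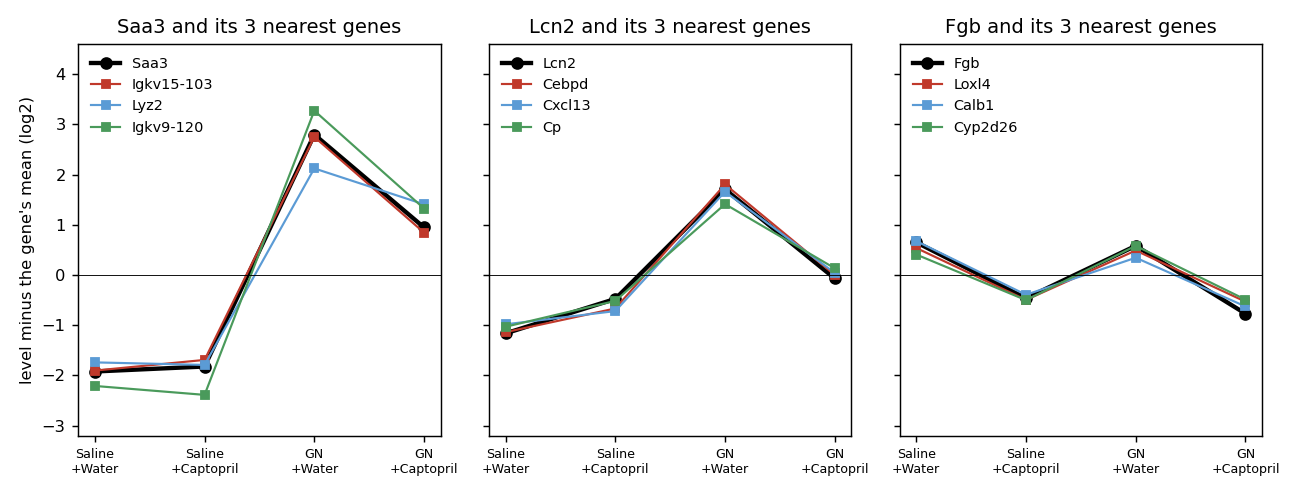
Level minus the gene's mean over the 4 arrays (log2, vertical axis) for Saa3, Lcn2 and Fgb (black) and the 3 genes nearest to each (colours), on the 4 arrays; lines only join the points. Lcn2 and Cebpd differ by a root mean square of 0.11.

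In the lists that follow, counts on the GN+Water-labelled array are given first against Saline+Water and then against Saline+Captopril. The second pair also differs in captopril. In these pairs 7.81% and 2.1% of all genes were past 2-fold upward and 5.06% and 0.831% downward. On captopril these shares were 0.613% and 0.0242%.

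Of the other acute phase genes, 23 of 28 listed were measured. Against Saline+Water 3 were at least 2-fold higher (Cp, Fn1 and Hp) and 1 lower (Itih4), with a median of −0.20. Against Saline+Captopril the counts were again 3 and 1, but of the first set Cp alone was among them, the others being the metallothionein genes Mt1 and Mt2, which were higher, and Serpina1b, which was lower. On captopril 0 were 2-fold apart, and the median was 0.00. Cp was above Saline+Water by 2.44 (log2), above Saline+Captopril by 1.93 and higher on captopril by 0.65, and its 7 probe sets gave log2 differences of 0.54 to 3.05 against Saline+Water. Hp, haptoglobin, which binds free haemoglobin, was 2.26-fold above Saline+Water, 1.66-fold above Saline+Captopril and 1.38-fold higher on captopril. The liver acute phase genes Orm2 and Orm3 were near background on all 4 arrays, and Orm1, at 4.55 to 4.99, on none.

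Upstream of these genes, 23 of 25 listed cytokine, receptor and transcription factor genes were measured. The number at least 2-fold higher on the GN+Water-labelled array was 6 against Saline+Water and 3 (Cebpd, Osmr and Cd14) against Saline+Captopril. On either baseline 0 were lower, and the medians were −0.03 and 0.28. On captopril 0 were 2-fold apart, and the median was 0.17. Cebpd was 7.69-fold above Saline+Water, 5.54-fold above Saline+Captopril and 1.59-fold higher on captopril. Osmr, the oncostatin M receptor gene, was 6.83-fold above Saline+Water and 2.49-fold above Saline+Captopril, and its second probe set differed by −0.0021 from Saline+Water. Cd14, the receptor to which Lbp delivers lipopolysaccharide, was 3.48-fold and 2.91-fold higher on these baselines and 1.75-fold on captopril. Nfkbia, the NF-kB inhibitor that NF-kB itself induces, was 6.13-fold above Saline+Water but 1.88-fold above Saline+Captopril, and 1.29-fold higher on captopril. Its 4 probe sets ranged from 0.02 to 2.62 (log2) against Saline+Water. Il6 was near background on all 4 arrays.

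In the fibrinogen network, 20 of 23 genes of clotting, fibrinolysis and fibrinogen binding were measured. On the GN+Water-labelled array 5 were past 2-fold upward and 1 downward against Saline+Water. Against Saline+Captopril 2 (Itgam and Itgb2) were past it upward and 1 (Serpinf2) downward. On captopril 2 were past it upward and 0 downward. The integrin subunit gene Itgb2, which pairs with Itgam as a leukocyte receptor for fibrinogen, was 3.36-fold above Saline+Water, 4.04-fold above Saline+Captopril and 2.47-fold higher on captopril. F2r, the thrombin receptor gene, was above Saline+Water by 3.11 (log2) with its more abundant probe set and by 1.10 with the other. Against Saline+Captopril these values were 0.83 and 0.53, and on captopril 0.16 and 0.22. Serpinf2, the gene of the plasmin inhibitor, was 4.64-fold lower on the GN+Water-labelled array than on Saline+Water, 4.03-fold lower than on Saline+Captopril, and 1.10-fold higher on captopril.

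Of 34 listed genes of tubular injury and repair, 32 were measured. On the GN+Water-labelled array 13 were at least 2-fold higher against Saline+Water and 8 against Saline+Captopril. On either baseline 0 were lower, and the medians were 0.61 and 0.52. On captopril 2 were higher and 0 lower, and the median was 0.18. The 2 were Cd44, a receptor for osteopontin and hyaluronan, 3.06-fold higher, and Cxcl10, a T cell attractant, 2.60-fold. Cd44 was near background on Saline+Water, so no fold against it is given, and it was 5.28-fold higher on the GN+Water-labelled array than on Saline+Captopril. Sox9, a transcription factor of tubule repair, was 1.37-fold below Saline+Water and 1.12-fold above Saline+Captopril, and 1.17-fold higher on captopril. Of 18 measured genes listed as partners of osteopontin and kidney injury molecule-1, 3 were at least 2-fold higher and 2 lower against Saline+Water. Against Saline+Captopril 1 was higher and 1 lower, and the medians were −0.14 and 0.18. Cd44 was the 1 past 2-fold on captopril. Timd2, a relative of Havcr1, was at 7.95 on the GN+Water-labelled array and at 10.2 to 10.3 on the other 3 arrays. Its second probe set read 6.42 on that array and 7.88 to 8.68 on the others.

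Around Cdkn1a, 34 of 36 listed p53 targets and cell cycle regulators were measured. On captopril 0 reached 1.5-fold in either direction, where 1.65% of all genes did upward and 0.274% downward. On water 6 were at least 2-fold higher and 1 lower, and the median was 0.22. With Saline+Captopril as baseline 1 was higher and 0 lower. That 1 was Top2a, a gene of dividing cells, 2.23-fold higher, though its second probe set was lower by 0.29. Pmaip1, a p53-induced cell death gene, was above Saline+Water by 2.36 (log2) and above Saline+Captopril by 0.58.

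Several members are also made by cells other than tubule cells, so markers of those cells were read on the same arrays. Of 10 measured neutrophil markers, 0 were at least 2-fold higher on the GN+Water-labelled array than on either saline array, and their mean level was 5.78 on Saline+Water, 5.22 on Saline+Captopril, 5.36 on the GN+Water-labelled array and 5.30 on GN+Captopril. On captopril 1 was, S100a8, 2.09-fold higher on the GN array, and S100a9 was 1.52-fold higher. The median of the 10 in that pair was −0.004. S100a8 and S100a9 had their highest values, 6.12 and 7.19, on Saline+Water, the array with discordant spike-ins. The part of neutrophils in the Lcn2 values was not tested. Macrophage and monocyte markers moved with the GN arrays: of 12 measured, 8 were at least 2-fold higher against Saline+Water, 9 against Saline+Captopril and 5 on captopril, with 0 lower, and their mean level was 7.15, 7.199, 8.73 and 8.15 in the same order. None of the 12 was near background. The 6 measured plasma cell and B cell markers had mean levels of 5.70, 5.83, 9.58 and 8.06, with 3 at least 2-fold higher against Saline+Water, 5 against Saline+Captopril and 3 on captopril, and 1 was near background on Saline+Water. The part of these cells in the Saa3 and Lbp values was not tested.

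Markers of liver and fat were read as well. The 11 measured hepatocyte markers had mean levels of 7.58, 7.73, 7.48 and 7.55, and they did not follow one pattern. Alb, albumin, was higher on the captopril array by 1.85 (log2) in the saline pair and by 1.01 in the GN pair, while Hpd, an enzyme of tyrosine breakdown, differed by −0.25 and −1.40. Fgb differed by −1.11 and −1.35 in these pairs. Tdo2 was near background on all 4 arrays. The 8 measured adipocyte markers had mean levels of 7.29, 7.55, 7.54 and 7.93, and their median difference from Saline+Water was −0.13 on the GN+Water-labelled array. Adipoq, the adiponectin gene, was higher there by 2.02 and Lipe, a lipase gene, differed by −0.44. On captopril 2 of the 8, Adipoq and Cidec, were at least 2-fold higher on the GN array, against 0.613% of all genes. In that pair 0 were 2-fold lower, against 0.0242%, and the median was 0.21. The part of liver and fat tissue in the members' values was not tested.

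**Figure D5:**
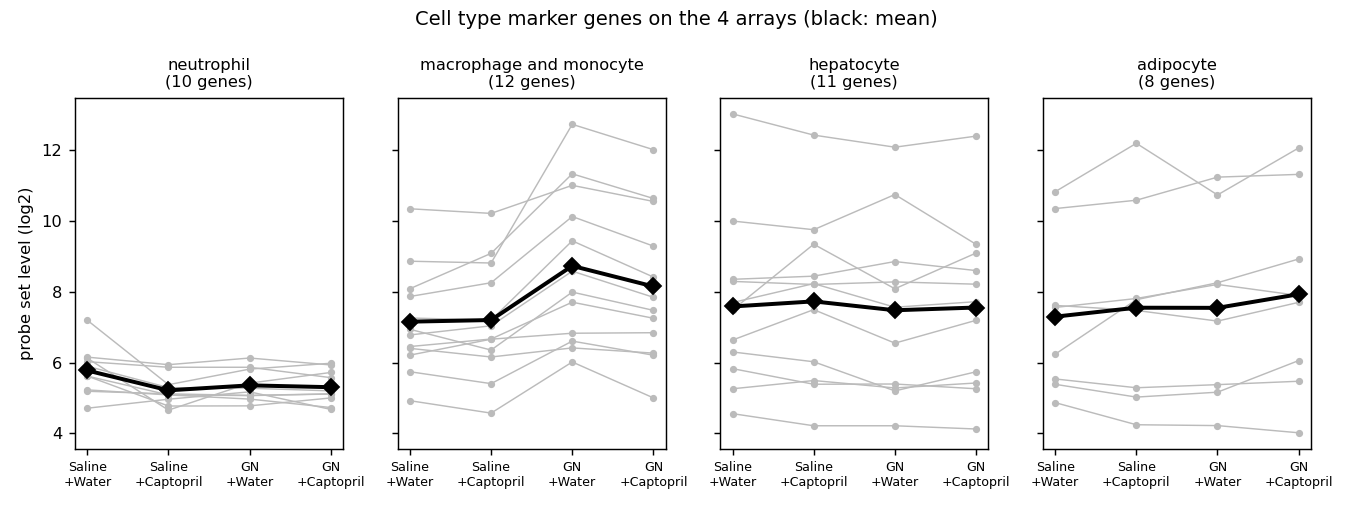
Levels (log2, vertical axis) of marker genes of 4 cell types on the 4 arrays, 1 grey line per gene and the mean in black; lines only join the points. The macrophage and monocyte mean is 8.15 on GN+Captopril and 8.73 on the GN+Water-labelled array, and the neutrophil means are 5.30 and 5.36.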

How the data were processed

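From 6 µg of whole-kidney RNA per array, biotin-labelled cRNA was made by the Affymetrix protocol, per the labels, and each group has 1 array. The deposited values run from 3.10 to 14.7 and were taken as log2 on that basis. GCOS and RMA are named in the submitters' processing notes, with no role or version, and how the arrays were normalised is not stated. The values were used unchanged. Probe sets with 1 gene symbol were named (20393 of 22690), with symbols updated through the Entrez ID where possible (20364). The probe set of highest mean stood for a gene, and members were not filtered on level. Differences are between 2 arrays; with 0 residual degrees of freedom no test was made, and a fit assuming that GN and captopril add up was not run. The number of arrays limits the precision. Members and lists were chosen with earlier results of these data known. Of each other list, up to 4 genes with the largest GN difference were named by rule. The rest were chosen after their values were seen. They include Saa1, Saa2, Mt1, Mt2, Serpina1b, Orm1, Orm2, Orm3, Il6, Itgam, Sox9, S100a8, S100a9, Tdo2, Alb, Hpd, Adipoq, Cidec and Lipe. Upstream sequences came from a RefSeq table of GRCm38.p6. Cyclic loess (limma 3.58.1), quantile normalisation, median centring and other filters, thresholds, probe set rules and array choices were tried as alternatives. The code that counts differences was run on simulated data with planted shifts well past the threshold and little noise. That checks the code alone and not the counts in these data.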

Additional observations from a re-analysis of the deposited data

Results flagged for a closer look

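For Cdkn1a the difference between GN and saline pointed opposite ways in the water and captopril pairs, 0.21 and −0.11 on the log2 scale. Each value is between 2 arrays and the difference between them was not tested. The second Cdkn1a probe set gave 0.13 and −0.01.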

How the results depend on the processing

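Each member difference in the 4 comparisons was recomputed under cyclic loess, quantile normalisation and median centring. All 36 values moved by less than 1.5-fold under each of these, the largest shift being 0.17 (log2), and cyclic loess turned the sign of 1 value, Fgb on water. Averaging probe sets could move Cdkn1a alone, by up to 0.11. Preferring probe sets that are not shared between transcripts moved no value. Saa3, Lcn2 and Havcr1 have only a shared one, which was kept. Neither setting thus bears on stability. The choice of array moved values by more. With Saline+Captopril as the baseline instead, Fga turned from −1.05 to 0.14. With GN+Captopril used instead of the GN+Water-labelled array, the members' median against Saline+Water was −0.033 in place of 0.64, and the count at least 2-fold higher was 2. That count was also 2 with median centring and 2 at a 3-fold threshold, and 1 among the 3 members past a filter at the 60th percentile. Between the GN arrays the count at least 2-fold lower was 1 of 3 with that filter and 5 of 9 at 1.5-fold. No paired analysis was possible because each group has 1 array. Every member value was above its array's background limit, the lowest by 0.93. That limit rests on 27 negative controls, so passing it does not show that low signal left the differences unaffected.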
